A study of Mus musculus with 24 samples.

Results

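The 7 genes described here belong to the p53 pathway and were followed in mouse B cells with and without the tumour suppressor Vhl. They are Trp53, which encodes p53, its inhibitors Mdm2 and Mdm4, and 4 genes that p53 switches on, Cdkn1a, Ccng1, Phlda3 and Trp53inp1. The 7 genes were taken by symbol from a table of read counts for 24421 genes, and all 7 passed the filter on low counts that left 12850 genes for testing. The study sorted 3 populations from mouse bone marrow, named in the labels as proBpreB, immature B cells and mature B cells, and measured their RNA by sequencing in 24 libraries. Every mouse carried MB1 Cre +/WT, a Cre recombinase driven from the B lineage gene Mb1 (Cd79a), and either VHL flox/flox, in which Cre can delete both Vhl copies, or VHL flox/WT, in which 1 copy is left. The flox/WT mice are therefore a heterozygous control and not wild type, since they carry Cre and 1 floxed copy too. There were 8 mice, 4 of each genotype, and each mouse gave 1 library of each population. Neither age nor sorting gates are given in the sources used here.

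p53 is a transcription factor that cells stabilise after DNA damage and other stress, and it switches on genes that halt division, repair DNA or start cell death. Mdm2 is a ubiquitin ligase that marks p53 for destruction and is itself switched on by p53, so that the pair form a feedback loop. Mdm4 is a relative that blocks p53 mainly by binding it. Pro-B and pre-B cells cut their own DNA to assemble antibody genes and divide rapidly between the cuts, and p53 is known there as a checkpoint. VHL is the part of a ubiquitin ligase that recognises the hypoxia-inducible factors (HIF). Because p53 is regulated largely as a protein, the RNA of Trp53 and the RNAs of its targets are separate readouts.

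Promoter sequences show how a pair of these targets, whose RNA levels went opposite ways between populations, carry the same kind of element. Windows from 250 bases before to 50 bases after the RefSeq transcript start (GRCm38.p6) were on hand for 6 of the 7 genes, and Trp53inp1 had none. Each window was searched on both strands for the p53 decamer, the 10-base p53 consensus motif, and for a p53 element, which is a pair of decamers side by side with at most 1 mismatch in all. The Cdkn1a stretch below is chr17:29090854-29090973 on the plus strand, from 125 to 6 bases before the start, and lies upstream of the gene. The Ccng1 stretch is chr11:40755417-40755536 on the minus strand, from 250 to 131 bases before the start, and lies upstream of the gene too. Capitals mark the decamers and elements.
Cdkn1a: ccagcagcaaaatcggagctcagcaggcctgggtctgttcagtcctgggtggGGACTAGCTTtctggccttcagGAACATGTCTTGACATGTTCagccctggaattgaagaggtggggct
Ccng1: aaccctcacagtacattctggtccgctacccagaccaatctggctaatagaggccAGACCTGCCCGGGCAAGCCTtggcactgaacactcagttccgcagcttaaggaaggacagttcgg
The Cdkn1a element begins 51 bases before the first of 2 Cdkn1a starts, and the Ccng1 element 195 bases before the Ccng1 start. Such an element was found in 29 of 32851 windows (0.0883%). Pairs with a gap of up to 13 bases were searched for too, and 359 windows (1.09%) held a pair with or without a gap. The Cdkn1a window also held a pair with a gap of 12 bases and no mismatch, which begins 73 bases before the start. A decamer without mismatch, alone or within an element, was found in 8.36% of windows. Among them were those of Trp53 (75 bases before the start) and Mdm2 (186 bases before it), which held no element. No decamer was found in the windows of Mdm4, Phlda3 and the second Cdkn1a start, which says only that these letters are not in those stretches. The letters ACGTG or GCGTG, the core to which HIF binds, stood in 43.8% of all windows and in those of Trp53, Mdm2, Ccng1 and the second Cdkn1a start. These matches describe sequence and not binding.

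Levels are given in CPM, read counts scaled to the size of each library by edgeR's TMM method. Library totals ran from 7850186 to 11863949 counts, so that 3 counts, taken as the floor of detection, equalled 0.253 to 0.382 CPM. Vhl itself was read first as a check of the labels. Its level was 23 to 27.9 CPM in the flox/WT proBpreB libraries and 7.97 to 15.1 CPM in the flox/flox ones, 26.7 to 47.9 against 3.07 to 8.16 CPM in immature cells, and 26.3 to 32.4 against 5.39 to 9.79 CPM in mature cells. The genotypes did not overlap in any population, but counts cover the whole gene and the floxed exons are not named in the labels. Of the stage markers, 10 pro-B and pre-B genes summed to 1720 to 3160 CPM in proBpreB libraries and 51.1 to 216 CPM in the others, and the 10 mature B genes to 1300 to 1930 CPM in proBpreB, 8700 to 12900 CPM in immature and 16300 to 25100 CPM in mature libraries. The mature B genes had lower sums in flox/flox mice, 8700 to 9220 against 10500 to 12900 CPM in immature and 16300 to 19200 against 23200 to 25100 CPM in mature cells, and 7, 6 and 4 of 10 were called lower from the earliest population to the latest (1 was called higher, in proBpreB cells). The 6 pan-B genes summed to 4240 to 4910 CPM in the proBpreB cells of flox/WT mice and to 2970 to 3110 CPM in those of flox/flox mice (3 of 6 called lower), and to 7360 to 8510 and 5810 to 6320 CPM in mature cells (2 of 6 called lower). RNA of other blood cells was present throughout. The 13 erythroid genes summed to 2530 to 8100 CPM in flox/WT against 10300 to 19000 CPM in flox/flox immature cells, where 7 were called higher, and to 3830 to 10700 and 7820 to 21200 CPM in mature cells, where 3 were. The 14 neutrophil and monocyte genes summed to 8350 to 9840 and 12200 to 16300 CPM in immature cells, with 4 called higher. The 10 natural killer genes summed to 40.8 to 55.2 and 74.7 to 101 CPM in mature cells, with 3 called higher. None of these genes was at 0 in all libraries of any group. Their part in the results below was not tested, and in bulk samples fewer cells of a type and less RNA per cell cannot be told apart.

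Between populations the 7 genes split into those that were higher after the proBpreB stage and those that were lower. Trp53 and Ccng1 rose from proBpreB to immature cells in both genotypes, while Mdm2, Mdm4 and Cdkn1a fell in both. Trp53inp1 fell in flox/WT and Phlda3 in flox/flox cells. In edgeR's quasi-likelihood test with Benjamini-Hochberg adjustment over all genes, called here at an adjusted p under 0.05, 6 of 7 genes changed in flox/WT mice, where 49.4% of all genes were called, and 6 of 7 in flox/flox mice, where 55.9% were. From immature to mature cells only Cdkn1a and Trp53inp1 of the 7 were called, both lower, in flox/WT (32.7% of all genes called) and in flox/flox mice (26.5%). From proBpreB to mature cells 7 of 7 were called in flox/WT (58.8% of all genes) and 6 of 7 in flox/flox mice (59.1%), Mdm4 being the exception. Changes between populations were thus common among all genes.

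**Figure D1:**
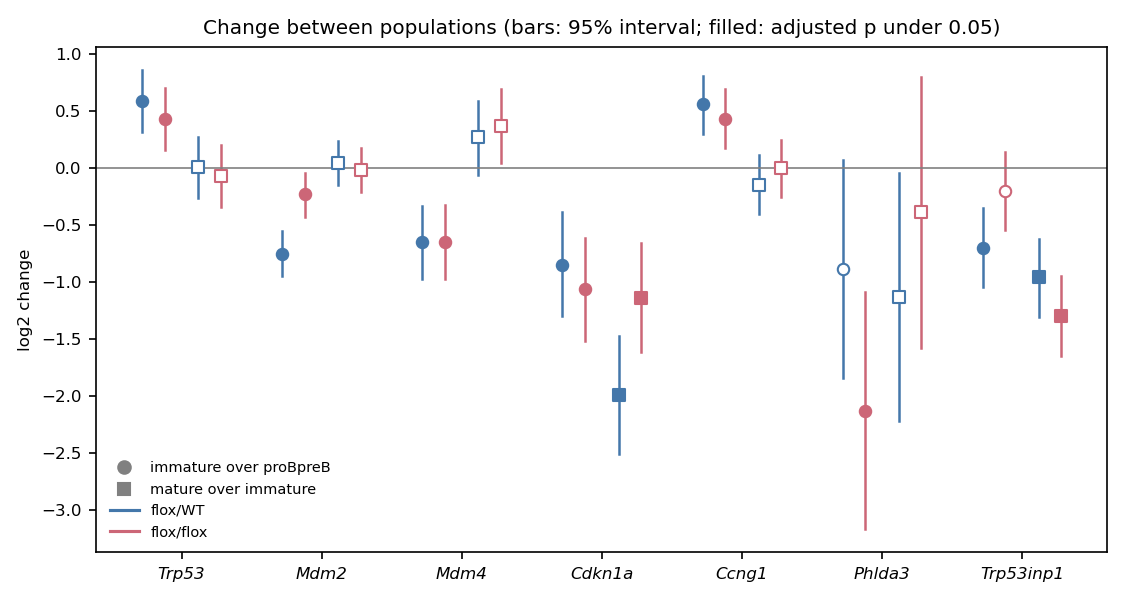
Log2 change of each gene between populations, from proBpreB to immature (circles) and from immature to mature (squares), in flox/WT (blue) and flox/flox (red) mice; bars are 95% intervals of the edgeR fit over 4 mice a group and filled marks have an adjusted p under 0.05. Trp53 and Ccng1 lie above 0 at the first step and Mdm2, Mdm4 and Cdkn1a below it, and at the second step only Cdkn1a and Trp53inp1 are filled.

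Trp53 (chr11:69580359-69591873, plus strand, GRCm38) was expressed at 140, 123, 104 and 104 CPM in the 4 flox/WT proBpreB libraries and at 143, 106, 120 and 128 CPM in the flox/flox ones. In immature cells it stood at 188, 183, 163 and 175 CPM in flox/WT against 190, 152, 157 and 170 CPM in flox/flox mice. In mature cells it stood at 177, 234, 150 and 151 CPM in flox/WT against 168, 162, 160 and 147 CPM in flox/flox mice. Every immature and mature library lay above every proBpreB library, and the genotypes overlapped in each population. The rise from proBpreB to immature cells was 1.5-fold in flox/WT (log2 change 0.59, SE 0.13, adjusted p = 0.000384) and 1.34-fold in flox/flox mice (0.43, SE 0.13, adjusted p = 0.00615). Immature and mature cells differed by 0.01 in flox/WT and −0.07 in flox/flox mice on the log2 scale, with 95% intervals of −0.26 to 0.27 and −0.34 to 0.2. Ordered by mean, the groups ran from flox/WT proBpreB (118 ± 17.4 CPM, SD, n = 4) and flox/flox proBpreB (124 ± 15.6) through flox/flox mature (159 ± 8.55), flox/flox immature (167 ± 16.8) and flox/WT immature (177 ± 10.7) to flox/WT mature cells (178 ± 39.7). Among neighbours in that order, the step from proBpreB to mature cells of flox/flox mice was called (log2 change 0.36, adjusted p = 0.018), although that call was lost without flox/flox mouse 2 (adjusted p = 0.113) or mouse 3 (0.0718). No genotype difference of Trp53 was called. The estimates were 0.08, −0.09 and −0.16 from the earliest population to the latest, with intervals of −0.19 to 0.35, −0.36 to 0.18 and −0.43 to 0.11. The p53 relatives Trp63 and Trp73 had 8 and 31 counts over all 24 libraries, in 4 and 10 libraries, and were not tested.

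Mdm2 (chr10:117688875-117710758, minus strand) was the member whose genotype effect differed between populations by a direct test. Its level was 147, 156, 141 and 163 CPM in flox/WT proBpreB libraries and 136, 133, 132 and 131 CPM in flox/flox ones. In immature cells it was 96.6, 86.5, 86.4 and 91.7 CPM in flox/WT against 115, 114, 113 and 110 CPM in flox/flox mice. In mature cells it was 78.9, 86.4, 107 and 99.8 CPM in flox/WT against 113, 109, 117 and 109 CPM in flox/flox mice. All 4 flox/flox mice were below all 4 flox/WT mice in proBpreB cells, and above all 4 of them at both later stages. The proBpreB difference did not pass the test (log2 change −0.19, SE 0.09, adjusted p = 0.263). In immature cells Mdm2 was 1.25-fold higher in flox/flox mice (0.33, SE 0.09, adjusted p = 0.0121), a call that was lost without flox/WT mouse 2 (adjusted p = 0.0508). In mature cells it was 1.2-fold higher (0.27, SE 0.09, adjusted p = 0.0483), and that call was lost when any mouse other than flox/WT mouse 3 was left out (adjusted p 0.0613 to 0.155).

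The difference between the genotype effects in immature and proBpreB cells was itself tested and passed for Mdm2 (log2 0.52, SE 0.13, 95% interval 0.24 to 0.8, adjusted p = 0.00956), and it passed with each of the 8 mice left out in turn (adjusted p 0.00487 to 0.0464). It was the 1 gene of 7 called in this comparison, in which 10.9% of all genes were. Vhl RNA was itself called in this comparison (log2 −1.34, edgeR adjusted p = 0.00838). The flox/flox level of Vhl was 0.401 of the flox/WT level in proBpreB and 0.158 in immature cells. The part of this unequal Vhl loss in the Mdm2 result was not tested. For Mdm2 the same difference between mature and proBpreB cells was 0.46 (SE 0.13) and missed the threshold (adjusted p = 0.0508), with 3.06% of all genes and 0 of 7 members called (1 at an unadjusted p under 0.05, and 1 by DESeq2). It passed with RLE scaling (0.48, adjusted p = 0.0382), with DESeq2 (0.48, adjusted p = 0.00254) and without flox/WT mouse 3 (0.57, adjusted p = 0.0198). Seen along the stages, Mdm2 fell from proBpreB to immature cells by 0.75 (SE 0.09, adjusted p = 1.26e-07) on the log2 scale in flox/WT mice and by 0.23 (SE 0.09, adjusted p = 0.0365) in flox/flox mice. The smaller fall in flox/flox mice was not called without any 1 of the 4 flox/flox mice (adjusted p up to 0.112). Between immature and mature cells the level differed by 0.04 in flox/WT and −0.02 in flox/flox mice, neither of which passed. The group means ran from 90.3 ± 4.89 CPM (flox/WT immature) and 93.1 ± 12.8 (flox/WT mature) through 112 ± 3.67 (flox/flox mature) and 113 ± 2.09 (flox/flox immature) to 133 ± 2.42 (flox/flox proBpreB) and 152 ± 10 (flox/WT proBpreB), each with n = 4. Replicate spread was smaller in flox/flox mice, with coefficients of variation of 1.82%, 1.84% and 3.28% against 6.61%, 5.41% and 13.7%.

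Mdm4 (chr1:132959484-133030561, minus strand), the non-ligase inhibitor of p53, followed the stages and showed no called genotype effect. Its mean was 95 ± 9.22 CPM (SD, n = 4) in flox/WT and 88.2 ± 5.9 in flox/flox proBpreB cells, 60.5 ± 8.26 and 56.3 ± 12.5 in immature cells, and 72.9 ± 11.6 and 72.6 ± 15.7 in mature cells. All proBpreB libraries (81.7 to 104 CPM) lay above all immature ones (41.3 to 72.4 CPM), whereas mature libraries (51.4 to 87.2 CPM) overlapped both. The fall from proBpreB to immature cells was 0.65 on the log2 scale in both genotypes (SE 0.15, adjusted p = 0.000863 in flox/WT and 0.000821 in flox/flox mice). The difference between mature and proBpreB cells of flox/WT mice passed (−0.38, adjusted p = 0.0341) but not without flox/WT mouse 1 (−0.35, adjusted p = 0.108), mouse 2 (−0.25, 0.242) or mouse 4 (−0.43, 0.0507). The genotype estimates were −0.11, −0.1 and −0.01 in proBpreB, immature and mature cells, with intervals that reached from −0.43 to 0.32.

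**Figure D2:**
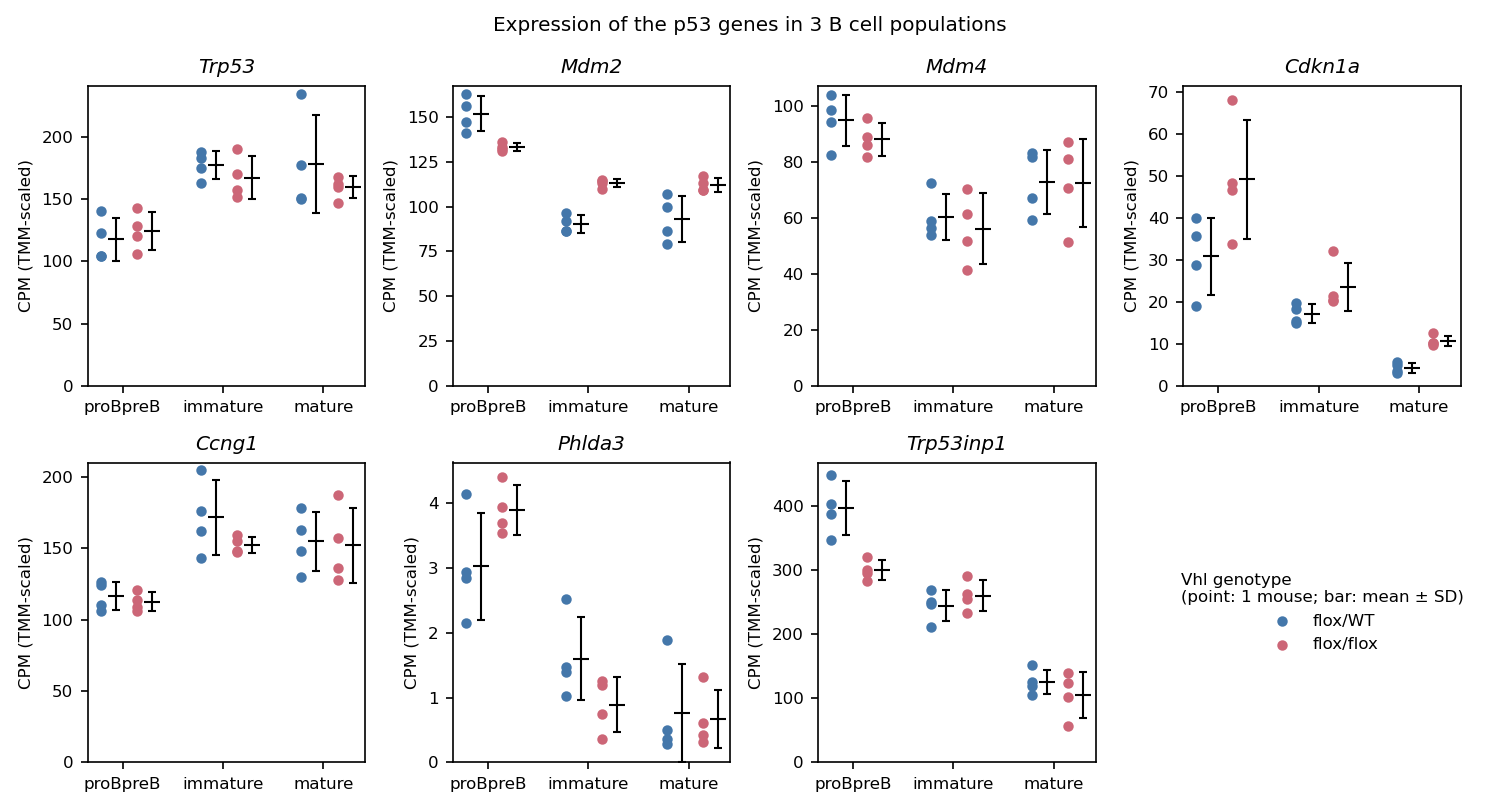
TMM-scaled CPM of the 7 genes in each library (points, 1 mouse each) by population and Vhl genotype, with group mean ± SD (bars, n = 4); each panel has its own linear axis from 0. Mdm2 points of the genotypes do not overlap in any population, Cdkn1a falls at each step, and Trp53 is higher in immature and mature than in proBpreB cells.

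Cdkn1a (chr17:29090976-29100727, plus strand) encodes p21, the inhibitor of cyclin-dependent kinases through which p53 stops the cell cycle. Its level was 39.9, 28.7, 35.6 and 19 CPM in flox/WT proBpreB libraries and 68.1, 46.7, 33.7 and 48.2 CPM in flox/flox ones. In immature cells it was 19.8, 15, 15.5 and 18.2 CPM in flox/WT against 32.1, 21.5, 20.4 and 20.1 CPM in flox/flox mice. In mature cells it was 5.07, 5.66, 3.48 and 3.14 CPM in flox/WT against 12.5, 9.79, 10.3 and 10.1 CPM in flox/flox mice, which rests on 28 to 45 and 83 to 114 counts a library. The genotypes overlapped in proBpreB cells and did not overlap in immature or mature cells, with flox/flox the higher. In mature cells Cdkn1a was 2.48-fold higher in flox/flox mice (log2 change 1.31, SE 0.25, adjusted p = 0.000453), and the call was kept with each of the 8 mice left out (1.17 to 1.47, adjusted p up to 0.0041). In immature cells the estimate of 0.46 (SE 0.22) did not pass (adjusted p = 0.146), and it ran from 0.27 to 0.53 with each mouse left out (adjusted p 0.107 to 0.434). In proBpreB cells the estimate of 0.68 (SE 0.21) was just outside the threshold (adjusted p = 0.0518), and it was inside it without flox/flox mouse 3 (0.82, adjusted p = 0.0266) or flox/WT mouse 1 (0.83, adjusted p = 0.0203) and with DESeq2 (0.67, adjusted p = 0.0416).

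Cdkn1a fell at both steps in both genotypes. From proBpreB to immature cells it fell by 0.85 (SE 0.22, adjusted p = 0.00189) in flox/WT and by 1.06 (SE 0.21, adjusted p = 0.000132) in flox/flox mice on the log2 scale. From immature to mature cells it fell by 1.99 (SE 0.25, adjusted p = 2.68e-07) and by 1.14 (SE 0.23, adjusted p = 0.000313). The difference between these last falls, 0.85 (SE 0.33), did not pass without the pairing of libraries from the same mouse (adjusted p = 0.13, 7.74% of all genes and 0 of 7 members called, 1 at an unadjusted p under 0.05 and 0 by DESeq2) and passed with the mouse as a block (0.89, adjusted p = 0.0404). Each group mean in the order 4.34 ± 1.22 CPM (flox/WT mature), 10.7 ± 1.26 (flox/flox mature), 17.1 ± 2.3 (flox/WT immature), 23.5 ± 5.76 (flox/flox immature), 30.8 ± 9.14 (flox/WT proBpreB) and 49.2 ± 14.2 (flox/flox proBpreB) was therefore ranked by stage first and by genotype second. The pro-B and pre-B marker genes moved with the mature result. Their summed level was 51.1 to 86 CPM in flox/WT against 159 to 194 CPM in flox/flox mature cells, with 4 of 10 called higher and none lower. Mature cells had 2.99% of the proBpreB level of these markers in flox/WT and 6.42% in flox/flox mice, against 14.1% and 21.7% of the proBpreB level of Cdkn1a, and the part of such cells in the Cdkn1a difference was not tested. An antisense transcript, AC167363.2, shares 273 of the 3553 exon bases of Cdkn1a and is not listed by that name among the genes counted. The sources do not say whether strand was used in counting, so reads on the shared bases cannot be told apart.

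**Figure D3:**
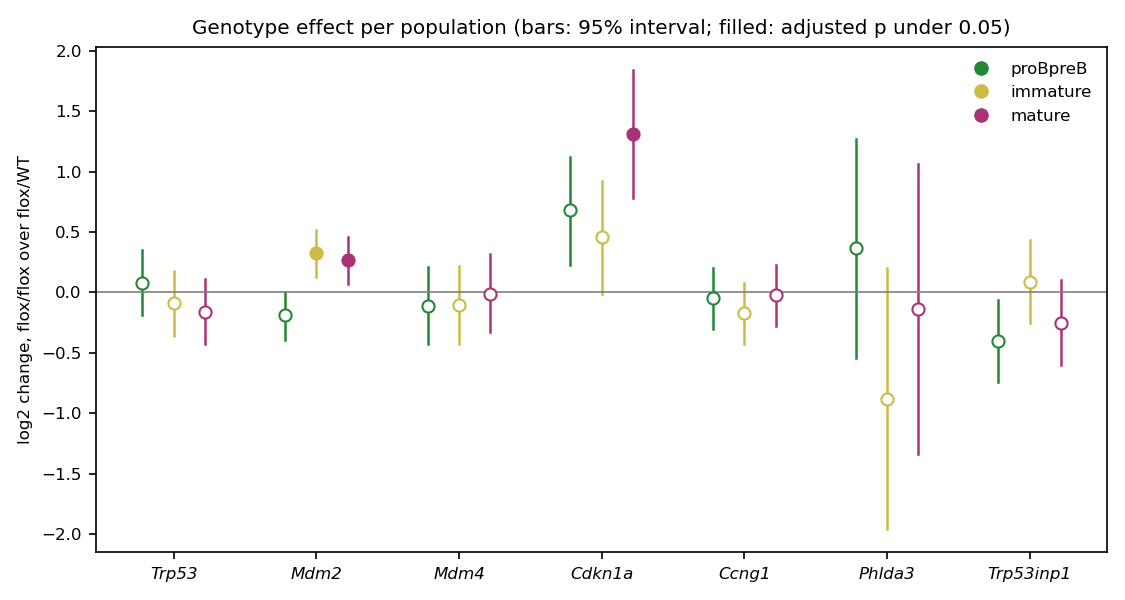
Log2 change of each gene between flox/flox and flox/WT mice in proBpreB (green), immature (yellow) and mature (purple) cells; bars are 95% intervals of the edgeR fit with 4 mice a genotype and filled marks have an adjusted p under 0.05. Mdm2 is filled in immature (0.33) and mature (0.27) cells and Cdkn1a in mature cells (1.31); no other mark is filled.

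Other inhibitors of the same kinases moved in their own ways. Cdkn1b (p27) was higher in flox/flox immature cells (38.2 ± 11.2 against 18.3 ± 4.55 CPM, log2 change 1.07, adjusted p = 0.000456), where Cdkn1a was not called, and Cdkn2c (p18) was lower there (32.1 ± 6.49 against 67.4 ± 8 CPM, −1.07, adjusted p = 4.1e-05). Cdkn2d (p19) was lower in flox/flox proBpreB cells (146 ± 4.98 against 190 ± 7.78 CPM, −0.38, adjusted p = 0.0384). Cdkn1c (p57) had group means of 0.389 to 2.73 CPM and no called genotype effect. Cdkn2a and Cdkn2b did not pass the filter on low counts, with at most 8 counts in any group of 4 libraries. Of the 5 inhibitor genes tested, Cdkn1a was the 1 called in mature cells. Cdkn2c resembled Cdkn1a along the stages in that it fell at both steps in both genotypes, to 15.9 ± 3.76 CPM in flox/WT against 18.4 ± 3.76 CPM in flox/flox mature cells.

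A list of 25 cell cycle genes that p21 is known to hold down through the DREAM repressor complex was read beside Cdkn1a. In proBpreB cells 0 of 25 were called by edgeR (1 at an unadjusted p under 0.05, and 0 by DESeq2), with a median log2 change of 0 (0 over all genes) and 6.13% of all genes called, 3.38% higher and 2.75% lower. In immature cells 25 of 25 were lower in flox/flox mice, with a median of −1.71 (0 over all genes), where 20.7% of all genes were called, 10.2% higher and 10.5% lower. In mature cells 17 of 25 were higher and none lower, with a median of 0.77 (0.01 over all genes), where 16.3% of all genes were called, 9.69% higher and 6.62% lower. In the same mature cells the pro-B and pre-B markers summed to 159 to 194 CPM in flox/flox against 51.1 to 86 CPM in flox/WT mice, with 4 of 10 called higher. The cycling genes summed to 402 to 764 CPM in flox/WT and 756 to 1120 CPM in flox/flox mature libraries against 5110 to 7050 CPM in proBpreB libraries, and the part of early cells in this difference was not tested. The cycling genes and Cdkn1a had the same direction of genotype difference in mature cells. In immature cells the cycling genes were lower in flox/flox mice. Cdkn1a was higher there with barely separate ranges (20.1 to 32.1 against 15 to 19.8 CPM), but did not pass (log2 change 0.46, adjusted p = 0.146). Whether p21 has a part in these differences was not tested. Mki67, the proliferation antigen, was 216 ± 124 CPM in flox/WT against 29.6 ± 13.1 CPM in flox/flox immature cells (log2 change −2.86, adjusted p = 0.000304) and 24.1 ± 15.1 and 33.9 ± 9.19 CPM in mature cells (adjusted p = 0.538). Cdk1, the mitotic kinase, was 77.7 ± 11.9 and 28.8 ± 6.36 CPM in immature (−1.43, adjusted p = 3.55e-08) and 18.2 ± 4.9 and 27.7 ± 1.86 CPM in mature cells (0.6, adjusted p = 0.00918). Ccnb1, its cyclin, was 104 ± 16.9 and 41.9 ± 8.6 CPM in immature (−1.31, adjusted p = 6.1e-06) and 26.7 ± 8.77 and 49.9 ± 12.3 CPM in mature cells (0.9, adjusted p = 0.00137).

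**Figure D4:**
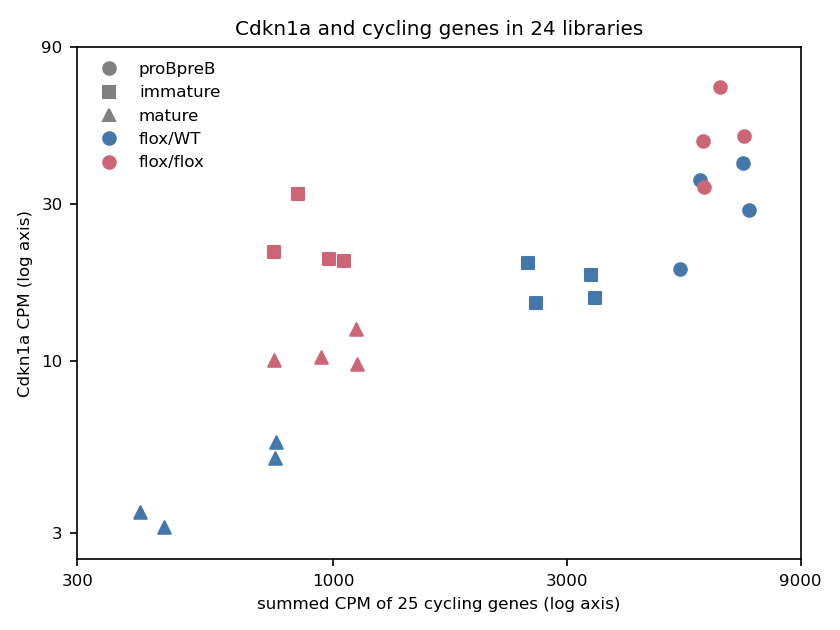
Cdkn1a CPM against the summed CPM of the 25 cycling genes in each of the 24 libraries, both on log axes, by population (shape) and genotype (colour). The immature flox/flox libraries (sums of 757 to 1050 CPM) lie left of the immature flox/WT libraries (2500 to 3430 CPM) at Cdkn1a levels of 20.1 to 32.1 against 15 to 19.8 CPM, and the mature flox/WT libraries have the lowest Cdkn1a.

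Ccng1 (chr11:40748552-40755311, minus strand), cyclin G1, is a strong p53 target that recruits a phosphatase to Mdm2. It was 106 to 126 CPM in flox/WT against 106 to 121 CPM in flox/flox proBpreB libraries. It was 143 to 205 and 147 to 159 CPM in immature and 130 to 178 and 128 to 187 CPM in mature libraries, all above every proBpreB library. The rise from proBpreB to immature cells was 1.47-fold in flox/WT (log2 change 0.56, SE 0.12, adjusted p = 0.000367) and 1.35-fold in flox/flox mice (0.43, SE 0.12, adjusted p = 0.00338), a direction opposite to that of Cdkn1a. Its genotype estimates were −0.05, −0.17 and −0.02 in proBpreB, immature and mature cells, none called, and the intervals lay between −0.43 and 0.23. The related cyclins behaved otherwise. Ccng2, cyclin G2, was called higher in flox/flox mice in all 3 populations, at 439 ± 18.8 against 346 ± 29.3 CPM in proBpreB (log2 change 0.34, adjusted p = 0.0469), 501 ± 55.4 against 221 ± 31.2 in immature (1.18, adjusted p = 1.07e-09) and 320 ± 12.1 against 150 ± 15.2 in mature cells (1.09, adjusted p = 6.59e-09). Ccni, cyclin I, was called higher in immature cells alone (509 ± 48.9 against 378 ± 13 CPM, 0.43, adjusted p = 0.00197), and its mature estimate of 0.26 did not pass (adjusted p = 0.0749).

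Phlda3 (chr1:135766119-135769136, plus strand), a p53 target that competes with Akt for membrane lipids, had the lowest CPM per kilobase of exon of the 7 genes in every group. It was 2.16 to 4.15 CPM (24 to 45 counts a library) in flox/WT against 3.54 to 4.41 CPM in flox/flox proBpreB cells. In immature cells it was 1.02 to 2.52 CPM in flox/WT against 0.358 to 1.26 CPM in flox/flox mice, and in mature cells 0.286 to 1.89 and 0.317 to 1.32 CPM, so that several libraries sat at the floor of 3 counts. Its fall from proBpreB to immature cells was called in flox/flox (−2.13, SE 0.49, adjusted p = 0.00061) and not in flox/WT mice (−0.89, SE 0.45, adjusted p = 0.106), and the difference between these changes did not pass (−1.24, adjusted p = 0.266). From proBpreB to mature cells the fall was called in both genotypes (−2.01 and −2.52, adjusted p = 0.00108 and 9.38e-05). In the step from immature to mature flox/WT cells 1 mouse decided the call. The change was −1.13 (adjusted p = 0.0981) with it and −2.24 (adjusted p = 0.00431) without flox/WT mouse 2, whose mature library had 1.89 CPM. The genotype intervals were wide, −0.54 to 1.27, −1.96 to 0.2 and −1.34 to 1.06. No genotype difference was called, and each value inside its interval remains compatible with the data.

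Trp53inp1 (chr4:11156431-11174379, plus strand), a stress protein of nucleus and autophagosome that p53 induces, fell along the stages. It was 449, 404, 347 and 388 CPM in flox/WT proBpreB libraries and 321, 283, 296 and 300 CPM in flox/flox ones. In immature cells it was 270, 251, 248 and 211 CPM in flox/WT against 234, 255, 263 and 291 CPM in flox/flox mice. In mature cells it was 152, 106, 120 and 125 CPM in flox/WT against 124, 57.4, 139 and 102 CPM in flox/flox mice. The genotypes separated in proBpreB cells, with flox/flox the lower, and overlapped in the other populations. That separation did not pass the test (log2 change −0.4, SE 0.16, adjusted p = 0.156), although it did in a fit to the proBpreB libraries alone (−0.41, adjusted p = 0.0314). In flox/WT mice the fall was called at both steps, by 0.7 (SE 0.16, adjusted p = 0.000784) and by 0.96 (SE 0.16, adjusted p = 3.59e-05). In flox/flox mice it was −0.2 (adjusted p = 0.296, or −0.23 with 0.0347 in a fit to the groups compared alone) at the first step and −1.3 (SE 0.17, adjusted p = 5.86e-07) at the second. The difference between the genotypes in the first step was 0.49 (SE 0.23) and did not pass (adjusted p = 0.185), although it did in a fit to the groups compared alone (0.5, adjusted p = 0.0273). The mean ran from 106 ± 35.6 (flox/flox mature) and 126 ± 19.1 (flox/WT mature) through 245 ± 24.9 (flox/WT immature), 261 ± 23.6 (flox/flox immature) and 300 ± 15.6 (flox/flox proBpreB) to 397 ± 42.2 CPM (flox/WT proBpreB).

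Set side by side, 0 of 7 genes were called between genotypes by edgeR in proBpreB (3 at an unadjusted p under 0.05, and 1 by DESeq2), 1 in immature (Mdm2) and 2 in mature cells (Cdkn1a and Mdm2), beside the 6.13%, 20.7% and 16.3% of all genes given above. Genotypes did not overlap for 2 of 7 genes in each population, namely Mdm2 with Trp53inp1 in proBpreB cells and Mdm2 with Cdkn1a in the others, where 15.4%, 22.9% and 16.3% of all genes did not overlap. The median log2 change of the 7 genes was −0.05, −0.09 and −0.02, near the medians of all genes (0, 0 and 0.01). The 3 genotype comparisons share no library, but the populations of a mouse are not independent. Per kilobase of exon (union of annotated exons, GENCODE annotation of GRCm38), flox/WT proBpreB cells had 61.3 CPM per kb of Trp53inp1, 33 of Ccng1, 29.9 of Mdm2, 29.2 of Trp53, 8.67 of Cdkn1a, 6.42 of Mdm4 and 1.94 of Phlda3. In flox/WT mature cells Ccng1 and Trp53 led with 44.1 and 44 CPM per kb, ahead of Trp53inp1 with 19.5 and Mdm2 with 18.3, and Cdkn1a had 1.22. The exon union of Mdm4, 14798 bases, is the longest of the 7 genes.

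Outside the 7 genes, 6 lists of the pathway held 110 genes, of which 107 were in the table and 103 were tested. In proBpreB cells 5 were higher and 6 lower in flox/flox mice, in immature cells 9 and 18, and in mature cells 13 and 11, beside 3.38% and 2.75%, 10.2% and 10.5%, and 9.69% and 6.62% of all genes. Their median log2 change was −0.02, −0.07 and −0.01, beside 0, 0 and 0.01 over all genes. Of the 103, 57 were called in no population, 32 in 1, 12 in 2 and 2 in all 3. No such count was made over all genes, so these numbers are a description. The 2 called in all 3 were Ppp1r13l and Ddit4, both higher each time. Over the 103 genes together, calls in both directions were thus found in every population, but single lists could have calls in 1 direction or none.

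**Figure D5:**
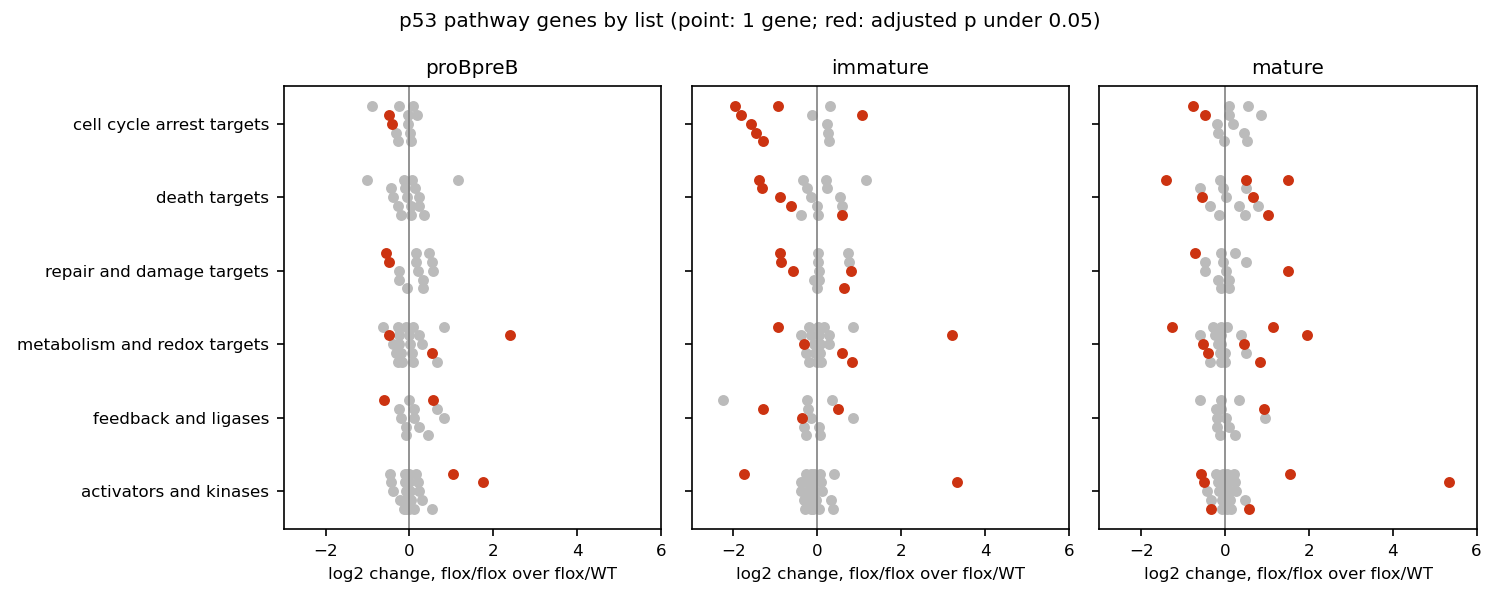
Log2 change between flox/flox and flox/WT mice for each tested gene of the 6 pathway lists (rows) in 3 populations (panels); each point is 1 gene and red points have an adjusted p under 0.05. Red points lie on both sides of 0 in every row in immature cells and in most rows in mature cells. In proBpreB cells they do so only in the metabolism and feedback rows. The point farthest right is Ppp1r13l, at 5.34 in mature cells.

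Upstream of p53, among 27 tested activators, cofactors and kinases, 2 were higher and none lower in proBpreB, 1 and 1 in immature, and 3 and 3 in mature cells. Of all genes, 3.38% were called higher and 2.75% lower in proBpreB, 10.2% and 10.5% in immature, and 9.69% and 6.62% in mature cells. The list holds inhibitors of p53 too, so a gene called higher need not be an activator. Ppp1r13l, which encodes iASPP, an inhibitor of p53, had the largest changes. It was 0.847 to 1.38 CPM in flox/WT against 3.12 to 4.07 CPM in flox/flox proBpreB libraries, and 0.508 to 1.11 and 5.77 to 9.91 CPM in immature ones. In mature cells it was 0 to 0.362 CPM in flox/WT, which is 0 to 3 counts a library, and 7.49 to 9.9 CPM in flox/flox libraries. The genotypes were far apart in each population. The log2 changes were 1.76 (SE 0.32, adjusted p = 0.000415), 3.33 (SE 0.34, adjusted p = 1.35e-08) and 5.34 (SE 0.41, adjusted p = 4.84e-11), the last with a flox/WT group near the floor. Smyd2, a methyltransferase that acts on p53, was higher in proBpreB (1.03, adjusted p = 0.0163) and mature cells (1.55, adjusted p = 0.000967). Chek1, the checkpoint kinase that also stands in the cycling list, was lower in immature cells (−1.76, adjusted p = 1.01e-05). Rpl11, a ribosomal protein that binds Mdm2, was lower in mature cells (−0.58, adjusted p = 0.00112).

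Among 13 tested feedback genes and ligases that act on p53, 1 was higher and 1 lower in proBpreB, 1 and 2 in immature, and 1 and none in mature cells. Of all genes, 6.13%, 20.7% and 16.3% were called in either direction in these populations. Rfwd2 (Cop1), a p53 ligase, was lower in flox/flox proBpreB (92.4 against 141 CPM, log2 change −0.61, adjusted p = 0.000916) and immature cells (88.3 against 113 CPM, −0.36, adjusted p = 0.0293). Trim24, another p53 ligase, was higher in the same populations (0.57, adjusted p = 0.0193, and 0.49, adjusted p = 0.0243). Cul9, a cullin that binds p53, was higher in mature cells (0.92, adjusted p = 0.0388).

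Among 12 tested arrest targets other than Cdkn1a, none was higher and 2 were lower in proBpreB, 1 and 6 in immature, and none and 2 in mature cells, beside the 6.13%, 20.7% and 16.3% of all genes called in either direction, against which the counts of the lists that follow are to be read too. Btg1 and Btg2, antiproliferative cofactors, were lower in flox/flox proBpreB cells (595 against 832 CPM, −0.48, adjusted p = 0.00156, and 447 against 600 CPM, −0.42, adjusted p = 0.0355). The immature genes with the largest falls, Psrc1 (−1.97), Cdc25c (−1.83), Gtse1 (−1.57) and Ckap2 (−1.46), are genes of mitosis and its spindle, and fell beside the cycling list. A gene of this list called lower therefore need not be one that halts division. Sfn (14-3-3 sigma) was lower in mature cells (48 against 81.6 CPM, −0.77, adjusted p = 0.00601), as was the phosphatase gene Ptp4a3 (−0.48, adjusted p = 0.0014).

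Among 16 tested death targets, none was called by edgeR in proBpreB (4 at an unadjusted p under 0.05, and 0 by DESeq2), 1 was higher and 4 lower in immature, and 4 were higher and 2 lower in mature cells. The BH3-only genes Bbc3 (Puma) and Pmaip1 (Noxa), whose products bind Bcl2 proteins to start apoptosis, changed sign between populations. Bbc3 was 1.87 to 2.63 CPM in flox/flox against 3.92 to 4.63 CPM in flox/WT immature libraries (−0.88, adjusted p = 0.0191), and 7.49 to 15.2 against 2.89 to 5.14 CPM in mature ones (1.49, adjusted p = 6.94e-05). Pmaip1 was 2.51 to 4.74 against 6.57 to 11.6 CPM in immature (−1.38, adjusted p = 0.000329) and 40 to 65.7 against 21.2 to 29.3 CPM in mature libraries (1.02, adjusted p = 0.00169). Neither gene overlapped between genotypes at these stages, and the differences between the mature and immature effects were 2.37 (adjusted p = 4.32e-05) and 2.4 (adjusted p = 1.92e-05). Bcl2l1, which encodes the survival protein Bcl-xL, was also higher in mature cells (0.66, adjusted p = 0.00984), and Zmat3, an RNA-binding p53 target, was lower (−1.41, adjusted p = 0.0336). Pidd1 and Siva1 were lower in immature cells (−1.31, adjusted p = 0.00109, and −0.62, adjusted p = 0.00232).

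Among 13 tested repair and damage targets, none was higher and 2 lower in proBpreB, 2 and 3 in immature, and 1 and 1 in mature cells. Gadd45a, a damage-response gene, was lower in flox/flox proBpreB (22.8 against 33.4 CPM, −0.55, adjusted p = 0.0166) and mature cells (14.9 against 24.6 CPM, −0.72, adjusted p = 0.000891). Rrm2b, the p53-induced subunit of ribonucleotide reductase, was lower in proBpreB cells (87.6 against 123 CPM, −0.49, adjusted p = 0.0303) and higher in immature cells (112 against 64.3 CPM, 0.8, adjusted p = 8.51e-05), and these effects differed by 1.29 (adjusted p = 5.79e-05). Pcna and Fanci, genes of replication and crosslink repair, were lower in immature cells (−0.9, adjusted p = 1.33e-06, and −0.87, adjusted p = 7.45e-06). Mgmt, which removes alkyl groups from DNA, was higher in mature cells (1.49, adjusted p = 0.012).

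Among 22 tested metabolic and redox targets, 2 were higher and 1 lower in proBpreB, 3 and 2 in immature, and 4 and 3 in mature cells. Ddit4 (Redd1), an mTOR inhibitor induced by p53 and by hypoxia, was 53.2 to 71 CPM in flox/flox against 8.1 to 18 CPM in flox/WT proBpreB libraries, 71.3 to 93.8 against 5.18 to 14.5 CPM in immature ones and 61.2 to 103 against 16 to 40.1 CPM in mature ones. Its log2 changes were 2.4, 3.21 and 1.96 (adjusted p = 2.33e-06, 2.16e-08 and 2e-05). Ephx1, an epoxide hydrolase, was lower in immature (−0.94, adjusted p = 1.5e-06) and mature cells (−1.26, adjusted p = 8.27e-09). Abhd4, a lipid hydrolase, was higher in proBpreB (0.55, adjusted p = 0.0434) and mature cells (1.15, adjusted p = 8.13e-06). Lpin1, a phosphatidate phosphatase, was higher in immature cells (0.84, adjusted p = 0.0121).

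The genes whose pattern over the 24 libraries was most like each member were found by Pearson r of log2 CPM, which carries the differences between populations that all libraries share and is a description. Trp53 was most like Farsb (r = 0.943), Baz1a (0.937) and Elovl1 (0.914). Mdm2 was most like Klra1 (0.931), Pgm2l1 (0.926) and Ppp2r2d (0.898), and Mdm4 like Rbm33 (0.895), Zfp445 (0.871) and Ddx26b (0.845). Cdkn1a was most like Impa2 (0.956), Tnfrsf19 (0.955) and Zfp422 (0.946). Ccng1 was most like Tmem168 (0.904), Capza1 (0.897) and Dcun1d1 (0.895), Phlda3 like Fam92a (0.925), Rad54b (0.917) and Cdc25c (0.913), and Trp53inp1 like Thoc2 (0.947), Dnah8 (0.944) and Ppm1e (0.944). No other member stood among the 3 genes nearest to any member.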

How the data were processed

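RNA from 24 sorted libraries (8 mice, 3 populations each) was analysed from the gene-level counts that the authors deposited. Reads were handled with CASAVA, FastQC, Trim Galore, HISAT2 and featureCounts on build mm10, per the submitters' processing notes, which also name DESeq2. No source used here gives versions, annotation or strand setting. Libraries came from a low-input SMARTer kit, per the labels' protocols. A deposited table of normalised values was not used. Columns were matched to samples by the number that opens each title.

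The tests were 12 comparisons of counts by robust quasi-likelihood (edgeR 4.0.16, R 4.3.3), after TMM scaling and filterByExpr on 6 groups, with 18 residual degrees of freedom, over 12850 genes, with Benjamini-Hochberg adjustment within each. Intervals are 95% on those degrees of freedom. The procedure was tested on simulated data. Alternatives were RLE scaling, no filter, only the groups compared, DESeq2 1.42.0, a block (the mouse for population comparisons and interactions, the replicate number for genotype comparisons), and each mouse left out. The 3 libraries of a mouse are paired by the labels' host identifiers: their deviations from group means correlated at 0.0277 to 0.3, and in 22 of 24 pairs the own mouse correlated best. No pair of libraries of 1 group agreed within sampling noise (lowest chi-square per degree of freedom 6.05). The members and gene lists were chosen with earlier results of these data known.

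All 7 members are named in every comparison, with up to 4 called genes of each pathway list per population by size of change, every p53 family, kinase inhibitor and cyclin G gene, Mki67, Ccnb1 and Cdk1 of the cycling list, Vhl, and the 3 genes most like each member (prior count 2, mean log2 CPM at least 2, unnamed clones left out).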

Additional observations from a re-analysis of the deposited data

Results flagged for a closer look

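Each of the 42 groups of 4 libraries (7 genes in 6 groups) was checked for a library far from the others by Dixon's ratio, which chance exceeds in about 1 group in 20, and 3 libraries stood out. Cdkn1a was 32.1 CPM in immature cells of flox/flox mouse 1, the nearest other mouse having 21.5 CPM. In mature cells of the same mouse it was 12.5 CPM, the nearest having 10.3 CPM, so that this mouse had the highest Cdkn1a of its genotype in all 3 populations. Phlda3 was 1.89 CPM in mature cells of flox/WT mouse 2, the nearest having 0.498 CPM.

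The genotype effect on Mdm2 differed between immature and proBpreB cells by 0.52 on the log2 scale in the test of that difference (edgeR, adjusted p = 0.00956), with flox/flox mice lower in 4 of 4 proBpreB libraries and higher in 4 of 4 immature ones. The genotype effect on Vhl RNA differed as well, by −1.34 (edgeR, adjusted p = 0.00838), and its part in the Mdm2 difference was not tested.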

How the results depend on the processing

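Of 1089 member values under an alternative, 1028 kept direction and side of the threshold, 24 lost a call, 14 gained one and 23 changed sign, none of these 23 being called either way. The cause of these changes was not tested. Scaling moved the median of all genes by at most 0.043 (log2). Members called became 1 with DESeq2, with only the groups compared and with the replicate block in proBpreB cells (0 in the fit reported), where the block uses the replicate number, which the genotypes only share (12 pairs, correlations −0.0857 to 0.381, own number best in 7), and gave Cdkn1a an adjusted p of 0.0133. In mature cells they became 1 without the filter and with only the groups compared, where Mdm2 was lost (adjusted p = 0.0897 and 0.191) and all genes called were 1296 instead of 2096. In the differences between genotype effects they became 2 for immature against proBpreB with only the groups compared, 1 for mature against immature with the replicate block (here the mouse), and 1 for mature against proBpreB with RLE scaling and with DESeq2, which called 601 genes instead of 393. In the population comparisons and these differences, where the block is the mouse, it changed no other member's call.

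With each mouse left out, members called ranged from 0 to 1 in proBpreB, 0 to 1 in immature and 1 to 2 in mature cells, and 0 to 1 in the mature against proBpreB difference. All genes called ranged from 466 to 1015 in proBpreB cells, and from 805 to 1807, 661 to 1129 and 254 to 444 in the differences immature against proBpreB, mature against immature and mature against proBpreB. Pathway genes called ranged from 5 to 16 in proBpreB and 15 to 25 in mature cells. Signs changed in uncalled log2 values. Between genotypes these were Mdm4 in immature cells (−0.23 to 0.02) and, in mature cells, Trp53 (−0.23 to 0.01), Mdm4 (−0.11 to 0.13), Ccng1 (−0.14 to 0.05) and Phlda3 (−0.71 to 0.82). From immature to mature flox/WT cells they were Trp53 (−0.15 to 0.07, and −0.01 without the filter and with the replicate block) and Mdm2 (−0.05 to 0.15). In the mature against immature difference they were Trp53 (−0.14 to 0.09), Mdm2 (−0.16 to 0.04) and Mdm4 (−0.08 to 0.24), and in the mature against proBpreB difference Mdm4 (−0.02 to 0.22), Ccng1 (−0.08 to 0.07), Phlda3 (−1.01 to 0.48) and Trp53inp1 (−0.01 to 0.33). Values that rounded to 0 in the fit reported are not counted as sign changes, but some took both signs. They were Mdm4 in the immature against proBpreB difference (−0.12 to 0.16) and Ccng1 from immature to mature flox/flox cells (−0.13 to 0.07). Phlda3 had 3 to 47 counts a library.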
